A study of Homo sapiens with 4 samples.

Results

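The genes that encode the protein components of the cytosolic ribosome were followed through 4 nascent RNA libraries of Karpas 299 cells. Members were all genes counted on their own strand, with at least 300 counted bases, whose symbol is RPL or RPS plus digits, with an optional A, X or L ending, or RPLP0, RPLP1, RPLP2 or RPSA. RPS6K kinases and pseudogenes were left out. The rule found 81 of the 22798 genes in the tables, 49 for the large (60S) and 32 for the small (40S) ribosomal subunit. It used names and lengths and no measured level.

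Karpas 299 is a human line established from an anaplastic large cell lymphoma, an ALK-positive tumour of T lineage with surface CD30. All 4 cultures were treated for 3 hours, and bromouridine was present for the last 30 minutes, so that RNA made in that window could be captured with an antibody and sequenced (Bru-seq). In the drug experiment, cells received SM-164, a mimic of Smac that blocks inhibitor of apoptosis (IAP) proteins, or the solvent DMSO; the SM-164 dose was not given in the sources used here. In the receptor experiment, cells were placed on adherent Chinese hamster ovary (CHO) cells that express the CD30 ligand (CD30L+ CHO) or on CHO cells without it, and were collected by gentle pipetting. Each condition has 1 library and no replicate, so no p-value is given, and the intervals cover counting error only. No molecular identifiers are described, so PCR copies are counted as if independent, and the spread between cultures is unknown.

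A ribosome holds 1 copy of nearly every ribosomal protein, and the genes for these proteins are among the most strongly transcribed in growing cells. Their RNAs typically begin with a C followed by a run of C and T, the 5' terminal oligopyrimidine tract, through which the kinase mTOR controls their translation. The transcription factor MYC is a known activator of ribosome production. Surplus free ribosomal proteins are degraded, and RPL5 and RPL11, when not built into ribosomes, can bind MDM2 and stabilise p53.

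Start sequences were examined because the tract is the feature that sets these RNAs apart. Of the 81 members, 64 have a promoter entry in the RefSeq table used here (GRCh38.p14, 250 bases before to 50 after the annotated start), and 54 have exactly 1 entry. A C at the start followed by at least 4 C or T was present in 40 of these 54 (74.1%), against 250 of 4143 expressed genes with 1 entry (6.03%, or 5.13% without the ribosomal protein genes) and 3.98% of all 22114 symbols with 1 entry. The following windows, 5 bases before and 25 after the start, belong to the 5 members with the lowest and the 5 with the highest ratio on CD30L+ CHO against CHO cells, and are shown so that both ends of that comparison can be read against each other. Capitals mark the run of C and T from a start at C, and no capitals are shown for shorter runs. The lowest 5 were:
RPS28: acgtgactcctctccgccagaccgccgccg
RPL36: ccagcCCTTCCgccacggccgtctctggag
RPL35: acttcCTCTTTCCCTCggagcgggcggcgg
RPLP2: gccttCCTTTTCCTCCCTgtcgccaccgag
RPS15: cggaccaaagcgatctcttctgaggatccg
The highest 5 were:
RPL17: taagcagcctgaggtgagtgtttctcctgc
RPS3A: ttccgCCCTTTTggctctctgaccagcacc
RPS25: gcttcCTTTTTgtccgacatcttgacgagg
RPL39: agcttCCCTCCTCTTCCTTTCTCCgccatc
RPS27: tcgctCCTTTCCggcggtgacgacctacgc
In the order shown, the first set lies at chr19:8321491-8321520, plus strand, chr19:5690290-5690319, plus strand, chr9:124861933-124861962, minus strand, chr11:809962-809991, plus strand and chr19:1438391-1438420, plus strand. The second set lies at chr18:49492441-49492470, minus strand, chr4:151099623-151099652, plus strand, chr11:119018319-119018348, minus strand, chrX:119791606-119791635, minus strand and chr1:153990757-153990786, plus strand. The tract was present in 3 members of the first set and 4 of the second. RPS28, RPS15 and RPL17 had no tract at the annotated start, which says only that these letters are not at that position in this annotation.

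The libraries held 26217590 reads with SM-164, 31030478 with DMSO, 45535366 on CD30L+ CHO and 45885630 on CHO cells. Of the 9 Karpas 299 markers, 7 reached 0.5 RPKM (reads scaled by counted kilobases and by library total) in at least 1 library, with CD30 (TNFRSF8) between 4.97 and 12.3 RPKM. ALK lay between 0.0966 and 0.137 RPKM, an average over all counted bases of the gene that does not describe any part of it alone. T cell receptor genes summed to 1.36 to 2.75 RPKM, and 2 of the 4 reached 0.5 RPKM in at least 1 library. CD247 lay between 0.938 and 1.29 RPKM, CD3D between 0.323 and 1.35, CD3G at most at 0.150 and CD3E at most at 0.00278. The myeloid and epithelial lists summed to at most 1.53 and 0.504 RPKM. Of the 4 myeloid markers, 2 reached 0.5 RPKM, CSF1R (0.653 to 0.752) and LYZ (0.317 to 0.600), and of the 4 epithelial markers 0 did. Of the 4 B cell and 6 stromal markers, 0 reached 0.5 RPKM in any library, and the stromal list summed to 0.0946 RPKM with SM-164, 0.125 with DMSO, 0.00561 on CD30L+ CHO and 0.0199 on CHO cells. MS4A1, DCN and KRT19 were listed at 0 throughout.

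Ribosomal protein genes were among the most strongly transcribed genes in every library. Their median RPKM, a level per length and depth, was 16.0 with SM-164, 21.1 with DMSO, 9.04 on CD30L+ CHO and 10.5 on CHO cells, against a median of expressed genes between 1.34 and 1.397 RPKM. Between 61 and 73 of the 81 members lay in the highest decile of expressed genes. Together they took 0.575% of the library with SM-164 (95% Wilson interval 0.572% to 0.578%), 0.751% with DMSO (0.748% to 0.754%), 0.338% on CD30L+ CHO (0.336% to 0.339%) and 0.399% on CHO cells (0.397% to 0.401%). DMSO thus had the largest share and CD30L+ CHO the smallest, and the 4 intervals did not overlap. The values pool exons and introns, which cannot be told apart.

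**Figure D1:**
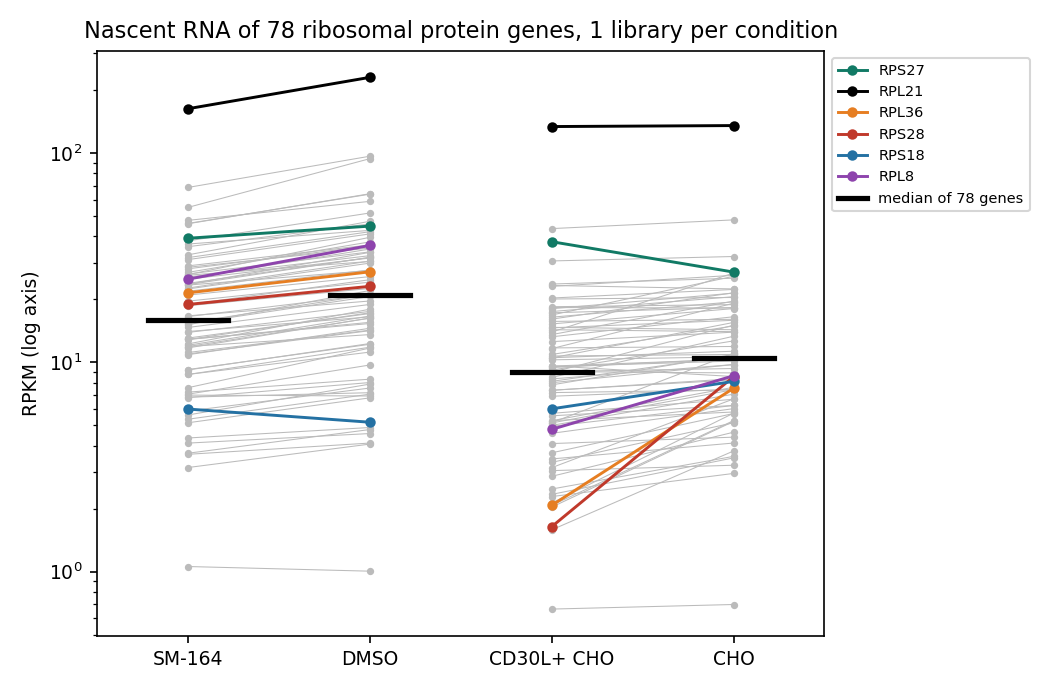
RPKM on a log axis for the 78 tested ribosomal protein genes in each of the 4 libraries, with 1 line per gene within each experiment, 6 genes coloured and the median as a black bar. The medians were 16.0 and 21.1 RPKM in the drug experiment (SM-164 and DMSO), and 9.04 and 10.5 RPKM in the receptor experiment (CD30L+ CHO and CHO).

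RPL21, a 60S protein, stood highest in all libraries, at 163 RPKM with SM-164, 230 with DMSO, 134 on CD30L+ CHO and 135 on CHO cells. Only 409 of its 5011 bases were counted. RPL41, which encodes an exceptionally short basic peptide of the 60S subunit, had 68.5, 96.6, 43.6 and 48.0 RPKM in the same order of libraries. RPS2, which lines the path by which mRNA enters the small subunit, had 55.0 RPKM with SM-164, 94.1 with DMSO, 13.96 on CD30L+ CHO and 26.7 on CHO cells. RPL7 had 46.1, 63.6, 20.1 and 20.4 RPKM in that order of libraries. RPL31, at the rim of the peptide exit tunnel, had 47.7, 58.8, 30.5 and 32.1 RPKM, with 1481 of its 17465 bases counted. All of these genes were lower in both receptor libraries than in both drug libraries. RPS6, the substrate of the S6 kinases, had 38.1, 51.7, 23.7 and 25.2 RPKM, and RPL7A had 32.7, 47.2, 18.4 and 18.9 RPKM. In the DMSO order of levels, 66 of 77 neighbouring pairs had overlapping counting intervals, while RPL21 (222 to 239 RPKM) lay clear of the next gene.

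Although the proteins are needed in near-equal numbers, the measured levels of the 78 genes above the floor spanned 1.06 to 163 RPKM with SM-164, 1.01 to 230 with DMSO, 0.663 to 134 on CD30L+ CHO cells and 0.697 to 135 on CHO cells. RPL39L, a paralog of RPL39, was the lowest of the 78 in each library. RPS27L, a paralog of RPS27 and a known p53 target, had 3.15 RPKM with SM-164, 4.07 with DMSO, 2.28 on CD30L+ CHO and 2.95 on CHO cells. The X-linked RPS4X had 15.4, 21.1, 10.7 and 10.9 RPKM in that order. Of the remaining paralogs, RPL3L, known from striated muscle, had 2 reads in each drug library, 4 on CD30L+ CHO and 3 on CHO cells, and RPL10L, known from testis, had 0 reads in all libraries, which allows at most 3 reads in each. In all, 3 members fell below the minimum mean of 0.5 RPKM used for ratios, which left 78 in every comparison. Across the 78, Spearman's rho between RPKM and counted bases was -0.64 with SM-164, -0.63 with DMSO, -0.33 on CD30L+ CHO and -0.51 on CHO cells, as a description over genes that share a library.

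With SM-164 against DMSO, nearly the whole set was lower by a similar, small amount. The median log2 ratio of RPKM + 0.25 was -0.36 over 78 genes (interquartile range -0.44 to -0.29), and 75 genes (96.2%) lay below 0. Over all 7881 genes tested the median was -0.04, and 63.3% lay below 0. Summed reads, scaled by library total as RPM, were 5748 with SM-164 and 7513 with DMSO, a ratio of 0.765 (95% interval 0.760 to 0.770). The spread between members was small (SD 0.15 over genes), and the 60S and 40S medians were -0.38 and -0.35. Lower by at least 1.5-fold were 3 members (3.85%), against a background of 1.1% of all genes tested, and 0 members were lower by 2-fold, against 0.0634%. The 3 became 1 under TMM scaling, with all genes centred at 0 or with a pseudocount of 1 RPKM, and 0 with the trend over gene length subtracted, which put the median at -0.18. None was higher by 1.5-fold, against 0.787%. The offset was shared across the set and not carried by a few members. In bulk libraries, fewer cells of a type and less RNA per cell cannot be told apart.

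The 3 members past 1.5-fold were RPS2 of the small subunit and RPL35 and RPL4 of the large subunit. RPS2 (chr16:2012062-2014827, minus strand; gene coordinates here and in what follows are hg19, as in the deposited files) had 55.0 RPKM with SM-164 and 94.1 with DMSO, a ratio of 0.585 (0.562 to 0.609). RPL35 (chr9:127620158-127624240, minus strand), a 60S protein at the exit of the peptide tunnel, had 7.57 RPKM with SM-164 and 11.7 with DMSO, a ratio of 0.647 (0.593 to 0.705). RPL4, which reaches into that tunnel, had 26.3 RPKM with SM-164 and 39.6 with DMSO, a ratio of 0.663 (0.637 to 0.691). Next lowest were the 60S genes RPL29 (15.1 and 22.1 RPKM with SM-164 and DMSO), RPL3 (12.3 and 18.0) and RPL8 (24.99 and 36.2), with log2 ratios of -0.54, -0.54 and -0.53. RPL3 and RPL8 encode proteins close to the peptidyl transferase centre.

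At the other end, RPS18, a protein of the 40S head, had 5.98 RPKM with SM-164 and 5.18 with DMSO, a ratio of 1.16 (1.04 to 1.28). RPL39L had 1.06 and 1.01 RPKM with SM-164 and DMSO, a ratio of 1.05 (0.933 to 1.19), and RPS29, a zinc-binding 40S protein, had 6.98 and 6.91 RPKM, a ratio of 1.01 (0.945 to 1.08). RPS9, a 40S protein that bears on decoding accuracy, had 6.83 RPKM with SM-164 and 7.16 with DMSO, a ratio of 0.953 (0.883 to 1.03). Of these 4 intervals, that of RPS18 lay above 1 and the others included 1. The most strongly transcribed members lay below the set's median, apart from RPL31, with log2 ratios of -0.50 for RPL21, -0.49 for RPL41, -0.46 for RPL7, -0.53 for RPL7A, -0.44 for RPS6 and -0.30 for RPL31. These genes were picked for a high level with DMSO, the library these ratios divide by. A lean to lower ratios can thus be built into the choice, and this was not tested.

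Members with known roles outside the ribosome lay near the median of the set, apart from RPS19, which was nearer 0. RPL5 had 14.7 RPKM with SM-164 and 18.9 with DMSO (log2 ratio -0.36), and its partner RPL11 had 25.6 and 32.4 (-0.34). RPS3, which also binds NF-kB complexes, had 13.9 RPKM with SM-164 and 17.5 with DMSO (-0.33). RPL22, which takes part in T cell development, had 9.24 and 12.2 (-0.39), and RPS19, the gene most often mutated in Diamond-Blackfan anaemia, had 4.35 and 4.88 (-0.16). RPS27L had a log2 ratio of -0.35 and RPS4X of -0.44. MYC itself had 4.90 RPKM with SM-164 and 6.67 with DMSO, a ratio of 0.735 (0.667 to 0.809).

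**Figure D2:**
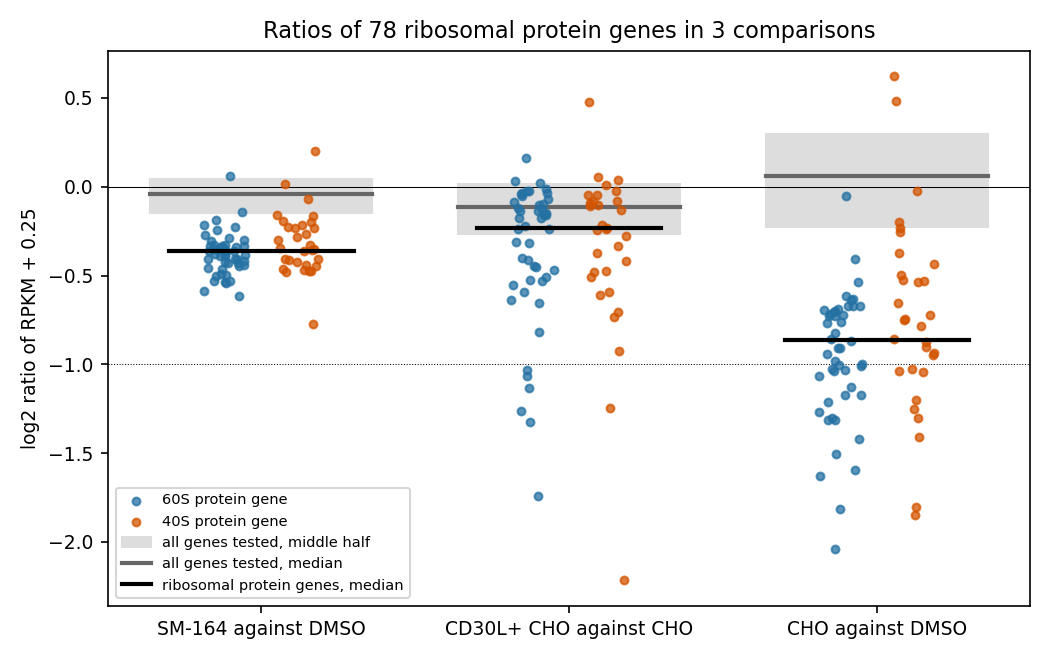
log2 ratio of RPKM + 0.25 for the 78 tested ribosomal protein genes in each comparison, 60S in blue and 40S in orange, with the median and interquartile range of all genes tested in grey and the members' median in black. Medians were -0.36 for SM-164 against DMSO, -0.23 for CD30L+ CHO against CHO and -0.86 for CHO against DMSO, and the spread was narrowest in the first.

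On CD30L+ CHO against CHO cells the set did not shift as a block, and a subset was much lower than the rest. The median log2 ratio was -0.23 (interquartile range -0.52 to -0.08), with 71 of 78 genes (91.0%) below 0, against a median of -0.12 and 72% below 0 over the 7661 genes tested. The members' SD over genes was 0.44, and their range ran from -2.22 to 0.48. Lower by at least 1.5-fold were 17 members (21.8%), against a background of 4.99%, and 8 members (10.3%) were lower by at least 2-fold, against 0.731%. None was higher by 1.5-fold, against a background of 2.62%. Summed RPM was 3377 on CD30L+ CHO and 3987 on CHO cells, a ratio of 0.847 (0.841 to 0.853). The 60S and 40S medians were -0.22 and -0.24. The median depended on scaling. Under TMM scaling, which moved the median of all genes by 0.17 and put it at 0.06, the members' median was near 0, at -0.034 with 42 genes below 0. With that scaling 10 and 5 members were past 1.5-fold and 2-fold, against 2.22% and 0.418% of all genes.

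The lowest member was RPS28 (chr19:8386384-8387280, plus strand), a 40S protein that contacts mRNA at the exit site. It had 67.0 reads (1.64 RPKM) on CD30L+ CHO cells and 352 reads (8.54 RPKM) on CHO cells, a ratio of 0.192 (0.145 to 0.2497), while SM-164 and DMSO gave 18.9 and 23.1 RPKM. RPL36 (chr19:5690272-5691678, plus strand), a 60S protein, had 133 reads (2.08 RPKM) on CD30L+ CHO cells and 486 reads (7.52 RPKM) on CHO cells, a ratio of 0.276 (0.226 to 0.335), with 21.5 RPKM with SM-164 and 27.1 with DMSO. Both genes were thus at their lowest in the CD30L+ library and above 18 RPKM in both drug libraries. RPL35 had 2.13 RPKM on CD30L+ CHO and 5.72 on CHO cells, a ratio of 0.373 (0.331 to 0.419). RPS15 (chr19:1438363-1440492, plus strand), whose tail reaches the decoding centre, had 2.08 RPKM on CD30L+ CHO and 5.27 on CHO cells, a ratio of 0.393 (0.332 to 0.464). RPL28, a 60S protein, had 1.58 and 3.77 RPKM on CD30L+ CHO and CHO cells, a ratio of 0.420 (0.375 to 0.470).

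The acidic stalk, which recruits elongation factors to the large subunit, contributed 2 of these 8 genes. RPLP2 (chr11:809936-812876, plus strand) had 2.03 RPKM on CD30L+ CHO and 5.22 on CHO cells, a ratio of 0.389 (0.336 to 0.450). RPLP1 had 5.15 RPKM on CD30L+ CHO and 11.05 on CHO cells, a ratio of 0.467 (0.424 to 0.513). RPLP0, the stalk's anchor on the ribosomal RNA, had 10.5 RPKM on CD30L+ CHO and 15.5 on CHO cells, a ratio of 0.677 (0.641 to 0.715). With SM-164 against DMSO the same 3 genes were close together, at 11.9 and 16.3 RPKM for RPLP2 (ratio 0.732), 23.9 and 31.8 for RPLP1 (0.751) and 18.9 and 24.8 for RPLP0 (0.761).

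The other 9 members past 1.5-fold included RPS2, RPL8, RPS16, RPS21, RPL13A, RPL19, RPL13 and RPS26. RPS2 had 13.96 RPKM on CD30L+ CHO and 26.7 on CHO cells, a ratio of 0.522 (0.491 to 0.555), and is one of the 8 genes named for their high level with DMSO. RPL8 had 4.79 and 8.63 RPKM on CD30L+ CHO and CHO cells, a ratio of 0.555 (0.5003 to 0.615). RPL13A, known also for a role in silencing inflammatory mRNAs, had 2.86 RPKM on CD30L+ CHO and 4.64 on CHO cells (0.615, 0.553 to 0.685).

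A few members pointed the other way. RPS27 (chr1:153963239-153964631, plus strand), a zinc finger protein of the 40S subunit, had 37.7 RPKM on CD30L+ CHO and 27.0 on CHO cells, a ratio of 1.397 (1.31 to 1.49). Its paralog RPS27L had 2.28 and 2.95 RPKM on CD30L+ CHO and CHO cells, a ratio of 0.775 (0.683 to 0.880). RPL39, which lines the exit tunnel, had 9.62 RPKM on CD30L+ CHO and 8.56 on CHO cells (1.12, 1.06 to 1.195), whereas the lower-level RPL39L had 0.663 and 0.697 (0.952, 0.846 to 1.07). RPS27 was thus the highest ratio of the set while RPS27L lay on the other side of 1. RPS25, known for its part in initiation at internal ribosome entry sites, had 23.3 and 22.4 RPKM on CD30L+ CHO and CHO cells (1.04, 0.985 to 1.10), and RPS3A had 14.7 and 14.3 (1.03, 0.978 to 1.08), intervals that included 1.

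Most of the strongly transcribed members differed little between the receptor libraries. The log2 ratio was -0.02 for RPL21, -0.14 for RPL41, -0.02 for RPL7, -0.07 for RPL31, -0.09 for RPS6 and -0.03 for RPL7A. Each of these was positive under TMM scaling. RPS2, also strongly transcribed, had -0.92. RPS4X, near the middle of the set in level, had -0.02 and was also positive under TMM scaling. RPL5 (10.5 and 11.3 RPKM on CD30L+ CHO and CHO cells), RPL11 (16.4 and 19.5), RPS3 (9.60 and 10.3), RPS19 (3.46 and 4.12) and RPL22 (5.56 and 6.23) had log2 ratios of -0.10, -0.24, -0.11, -0.24 and -0.16. MYC had 2.92 RPKM on CD30L+ CHO and 6.74 on CHO cells, a ratio of 0.433 (0.396 to 0.473).

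Genes on chromosome 19 and genes with a GC-rich start were frequent among the lower members. Of the 12 tested members on chromosome 19, 7 were lower by 1.5-fold and 5 by 2-fold, with a median log2 ratio of -0.69, against 10 and 3 of the 66 on other chromosomes, with a median of -0.17. All genes on chromosome 19 had a median of -0.28 (354 tested, 10.7% lower by 1.5-fold and 2.54% by 2-fold), against -0.11, 4.71% and 0.643% elsewhere. The chromosome was singled out after the values were seen. In the RefSeq windows of 300 bases, the 11 lower members with 1 entry had a median GC content of 65.7% (56.0% to 72.3%) and the other 42 had 58.5% (44.7% to 67.7%). Spearman's rho between GC content and the log2 ratio was -0.50 over 53 members that share both libraries, and -0.04 over 4062 genes tested. For SM-164 against DMSO the members' rho was 0.14, and for CHO against DMSO -0.10. The 2 traits overlap. Of the 11 lower members, RPS28, RPL36, RPS15, RPL28, RPS16 and RPL13A lie on chromosome 19, at 59.3% to 70.0% GC. RPL35, RPLP2, RPS21, RPS26 and RPLP1 lie elsewhere, at 72.3%, 65.7%, 70.7%, 58.7% and 56.0%. The rho was not taken without chromosome 19, and which trait goes with the lower ratios was not tested.

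The ends of that range are RPS28 and RPS27, and their 250 bases before the start are printed to show the contrast, with matches in capitals to 6 motifs searched on both strands. These were the ETS family core (CCGGAAG), the YY1 core (AAGATGG), the Sp1 GC box (GGGCGG), the E-box (CACGTG), which MYC and other factors can bind, the TATA box (TATAAA) and a CGCG-centred palindrome of housekeeping promoters.
RPS28: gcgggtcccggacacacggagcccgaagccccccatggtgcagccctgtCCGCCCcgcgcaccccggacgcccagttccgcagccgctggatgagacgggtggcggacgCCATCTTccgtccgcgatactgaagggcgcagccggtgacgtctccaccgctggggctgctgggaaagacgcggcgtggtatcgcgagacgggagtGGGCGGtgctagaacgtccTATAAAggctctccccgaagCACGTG
RPS27: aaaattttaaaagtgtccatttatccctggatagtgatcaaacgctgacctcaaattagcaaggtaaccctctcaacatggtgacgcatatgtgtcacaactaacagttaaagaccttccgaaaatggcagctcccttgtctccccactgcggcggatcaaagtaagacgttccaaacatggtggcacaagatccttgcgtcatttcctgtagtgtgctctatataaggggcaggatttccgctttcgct
The RPS28 stretch (chr19:8321246-8321495, plus strand, RefSeq, GRCh38.p14) has 69.6% GC and holds the Sp1 GC box at 2 places and the YY1 core, the TATA box and the E-box at 1 each. The RPS27 stretch (chr1:153990512-153990761, plus strand) has 45.2% GC and holds no exact match to any of the 6. It does hold a TATA-like run of letters near the start, which the search for TATAAA did not count. Over the 300-base windows, the ETS core was found in 31.5% of the 54 members with 1 entry, 25.8% of expressed genes and 10.7% of all genes, the YY1 core in 14.8%, 10.2% and 6.25%, and the Sp1 GC box in 61.1%, 72.1% and 43.0%. The palindrome was found in 5.56% of members, 1.38% of expressed genes and 0.439% of all genes, the E-box in 3.70%, 10.9% and 7.28%, and the TATA box in 11.1%, 4.92% and 12.7%. The matches in the RPS28 stretch do not overlap, and a match is a description of letters only. Members with the oligopyrimidine start had a median log2 ratio of -0.20 on CD30L+ CHO against CHO cells (40 genes), and those without it -0.31 (13 genes).

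**Figure D3:**
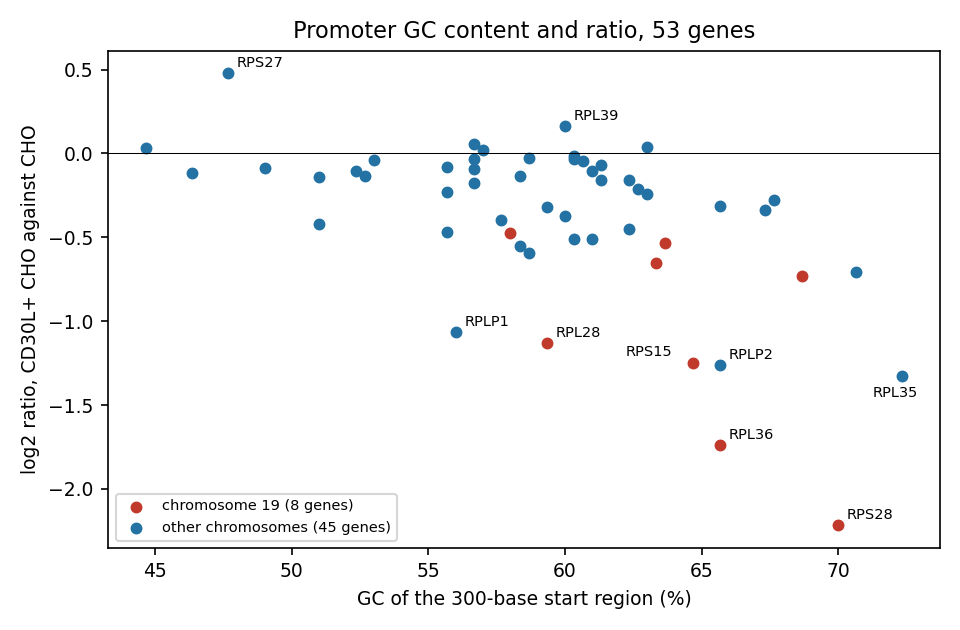
log2 ratio of RPKM + 0.25, CD30L+ CHO against CHO, against the GC content in percent of the 300-base start region for the 53 tested members with 1 promoter entry, with the 8 on chromosome 19 in red and the members at the extremes named. RPS28 lies at the lower right (log2 ratio -2.22) and RPS27 at the upper left (0.48).

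In these genes the 2 control libraries lay further apart than either pair within an experiment. For CHO against DMSO, the members' median log2 ratio was -0.86 (interquartile range -1.11 to -0.67), with 76 of 78 (97.4%) below 0, against 0.06 and 43.8% over the 8081 genes tested. Lower by at least 1.5-fold were 63 members (80.8%), against a background of 10.7%, and 29 (37.2%) were lower by 2-fold, against 4.52%. With the length trend subtracted, 39 members were lower by 1.5-fold, against 763 of the 8081 genes tested. Higher by 1.5-fold was 1 member, against 7.07% of all genes. Summed RPM was 3987 on CHO cells and 7513 with DMSO, a ratio of 0.531 (0.528 to 0.534). The hamster layer, the solvent and the experiment differ together between these libraries and cannot be told apart. Each control is also used in its own experiment's comparison, so the ratios are given side by side and not correlated.

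RPL8 was lowest, with 8.63 RPKM on CHO cells and 36.2 with DMSO, a ratio of 0.238 (0.222 to 0.256). RPS15 had 5.27 RPKM on CHO cells and 19.7 with DMSO (0.268, 0.242 to 0.297), RPL36 had 7.52 and 27.1 (0.278, 0.249 to 0.309), and RPS2 had 26.7 and 94.1 (0.284, 0.272 to 0.296). Among strongly transcribed members, RPL7 had 20.4 RPKM on CHO cells and 63.6 with DMSO, a ratio of 0.321 (0.307 to 0.336), and this same gene had a ratio of 0.983 between the receptor libraries. RPLP2 had 5.22 RPKM on CHO cells and 16.3 with DMSO (0.321, 0.293 to 0.352), RPLP1 11.05 and 31.8 (0.348, 0.326 to 0.371), RPL13 5.15 and 14.2 (0.363, 0.340 to 0.387) and RPS28 8.54 and 23.1 (0.370, 0.324 to 0.422). The other 20 members past 2-fold had ratios between 0.399 (RPL17, 14.03 RPKM on CHO cells and 35.2 with DMSO) and 0.496 (RPL41, 48.0 and 96.6). In this group were RPL7A, RPL4, RPS21, RPL3, RPS20, RPL23A, RPL6, RPL10A, RPL15, RPS3A, RPS27A, RPL19, RPL35A, RPS6, RPL14 and RPL35, so that it took in both subunits, the exit tunnel and the S6 kinase substrate. The 60S and 40S medians were -0.91 and -0.75.

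Against this general offset, RPS18 had 8.11 RPKM on CHO cells and 5.18 with DMSO, a ratio of 1.57 (1.43 to 1.71), and RPS29 had 9.76 and 6.91, a ratio of 1.41 (1.34 to 1.49). RPS9 (7.05 and 7.16 RPKM on CHO cells and with DMSO) and RPL34 (4.39 and 4.57) had ratios of 0.984 and 0.961, with intervals that included 1. RPS18, RPS29 and RPS9 were also among the 4 highest ratios with SM-164, a comparison that shares the DMSO library. RPS18 had 5.998 RPKM on CD30L+ CHO and 8.11 on CHO cells, a ratio of 0.739 (0.686 to 0.797). RPL5, RPL11 and RPS3 had log2 ratios of -0.73, -0.73 and -0.75 for CHO against DMSO, RPL22 of -0.94, RPS4X of -0.94, RPS27L of -0.43, RPL39L of -0.41 and RPS19 of -0.23. MYC had 6.74 RPKM on CHO cells and 6.67 with DMSO, a ratio of 1.01 (0.937 to 1.09).

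Other genes of translation were set beside these offsets. The lists differ in gene length, and their medians with the length trend subtracted are given below. With SM-164 against DMSO, the median log2 ratio was -0.26 over 7 further subunit genes (among them FAU, GNB2L1 and ribosomal protein paralogs outside the rule), -0.22 over 19 genes with oligopyrimidine mRNAs, mostly translation factors, -0.08 over 25 other initiation and elongation factors, -0.12 over 71 mitochondrial ribosomal protein genes and -0.04 over 9 small nucleolar RNA (snoRNA) host genes. Of these, 2 mitochondrial genes (2.82%), MRPS9 (-0.66) and MRPL51 (-0.61), were lower by 1.5-fold, against 1.1% of all genes tested. No gene of the other lists was. EEF1A1, the main carrier of aminoacyl-tRNA, had 194 RPKM with SM-164 and 277 with DMSO, a ratio of 0.701 (0.690 to 0.712), and EEF2, the translocase, had 13.1 and 19.4 (0.675, 0.646 to 0.705). FAU, which yields the 40S protein RPS30, had 10.6 RPKM with SM-164 and 13.3 with DMSO (log2 ratio -0.32), and GNB2L1, which encodes the 40S scaffold RACK1, had 23.6 and 28.7 (-0.28).

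On CD30L+ CHO against CHO cells the medians of the same lists were -0.22, -0.10, -0.11, -0.24 and -0.39. Lower by 1.5-fold were 0 of 7, 3 of 19, 1 of 24, 5 of 64 and 0 of 9 genes, against 4.99% of all genes tested. The snoRNA host genes thus had a lower median than the ribosomal protein genes there, and the mitochondrial genes a like one. EEF2 had 2.07 RPKM on CD30L+ CHO and 4.34 on CHO cells (0.478, 0.441 to 0.518), while EEF1A1 had 98.9 and 91.1 (1.09, 1.07 to 1.11), and VIM, the 1 gene of these lists higher by 1.5-fold, had 10.4 and 6.37 (1.64, 1.56 to 1.72).

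For CHO against DMSO the medians were -0.35, -0.47, -0.002, -0.01 and 0.16 in the same order of lists. The oligopyrimidine list had 9 of 19 genes lower by 1.5-fold and 6 by 2-fold, against 10.7% and 4.52% of all genes tested. The 6 were EEF2 (log2 ratio -2.10), EEF1A1 (-1.60), HNRNPA1 (-1.28), EEF1B2 (-1.18), EEF1D (-1.12) and EEF1G (-1.02). Past 2-fold in the other lists were FAU (-1.20), EIF5B (-1.16), SNHG6 (-1.11) and 7 of 71 mitochondrial genes (9.86%). These 7 were MRPL41 (-2.93), MRPS34 (-2.04), MRPL53 (-1.53), MRPL34 (-1.40), MRPL28 (-1.38), MRPL51 (-1.36) and MRPS9 (-1.12). Over all genes tested, 25.1% of 259 genes with an oligopyrimidine start were lower by 1.5-fold, against 9.45% of 3998 without one. The 259 include 40 ribosomal protein genes, 33 of them lower by 1.5-fold. Without the ribosomal protein genes the shares were 14.6% of 219 genes with such a start and 9.23% of 3985 without one. Among ribosomal protein genes, the 26 that hold an annotated snoRNA had medians of -0.41, -0.21 and -0.94 in the 3 comparisons (SM-164 against DMSO, CD30L+ CHO against CHO, CHO against DMSO), and the 52 tested without one -0.35, -0.23 and -0.86.

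**Figure D4:**
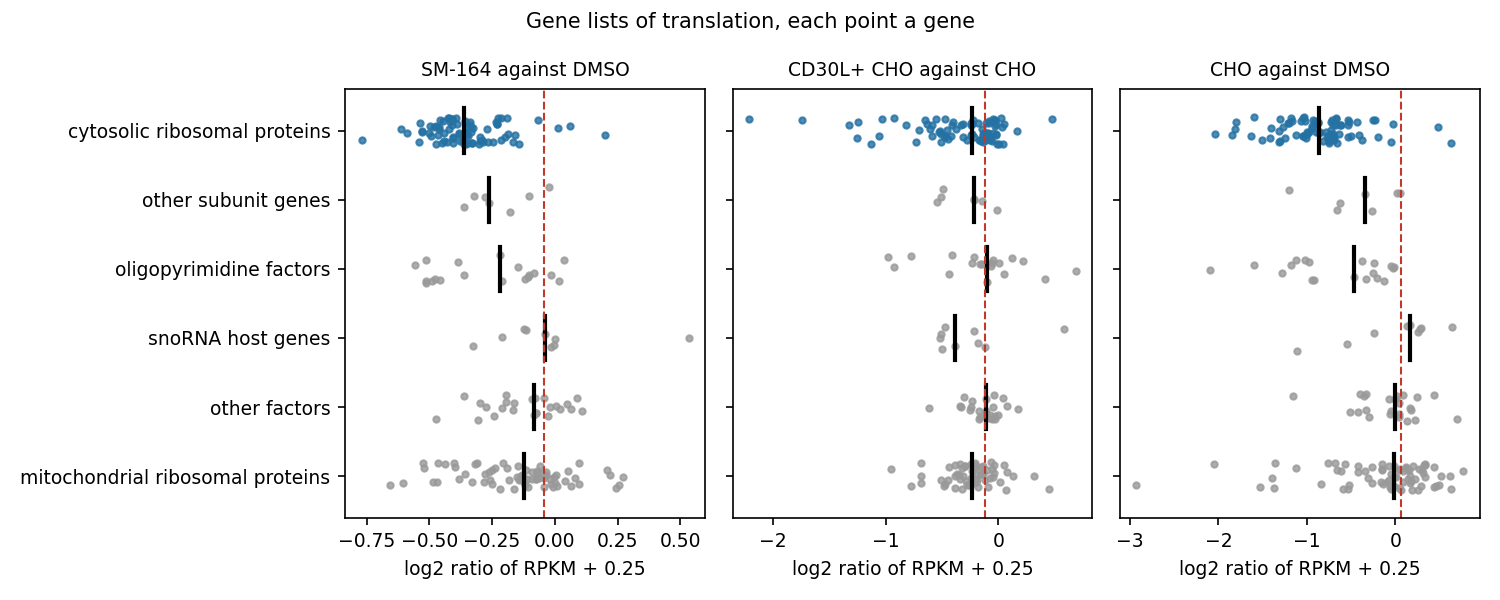
log2 ratio of RPKM + 0.25 for each gene of 6 translation lists in the 3 comparisons, with the list median as a black bar and the median of all genes tested as a dashed line (the horizontal scale differs between panels). The cytosolic ribosomal protein medians were -0.36, -0.23 and -0.86, and the median of the mitochondrial ribosomal protein genes was -0.12, -0.24 and -0.01.

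Ribosomal protein genes are short, with a median of 4351 counted bases, and short genes as a class had lower ratios in all comparisons. In the decile of fewest counted bases, all genes had a median log2 ratio of -0.27 for SM-164 against DMSO (26 members, median -0.39), -0.27 for CD30L+ CHO against CHO (33 members, -0.41) and -0.54 for CHO against DMSO (26 members, -1.08). In the longest decile it was 0.03, -0.04 and 0.05. With a running median over genes of similar length subtracted, the members' median was -0.18 for SM-164 against DMSO, -0.010 for CD30L+ CHO against CHO and -0.58 for CHO against DMSO. On CD30L+ CHO against CHO cells the typical member was thus at the level of other genes of its length, with 42 of 78 below 0, and 9 members were lower by 1.5-fold, against 1.94% of all genes. For CHO against DMSO, 39 members were lower by 1.5-fold after the subtraction, against 763 of 8081 genes. For SM-164 against DMSO none was past 1.5-fold, against 9 of 7881 genes, with 69 of 78 members below 0. In the highest RPKM decile, all genes had medians of -0.13, -0.01 and -0.30 in these comparisons, and the members in it -0.38, -0.18 and -0.90. With the length trend subtracted, the oligopyrimidine list (median 17874 counted bases) had medians of -0.17, 0.05 and -0.60. The first and last were close to the members' -0.18 and -0.58. The snoRNA host genes (3283 counted bases) had 0.17, -0.16 and 0.60. The further subunit genes had -0.06, -0.009 and -0.17, the other factors -0.04, 0.01 and -0.06, and the mitochondrial genes -0.009, -0.04 and 0.07.

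**Figure D5:**
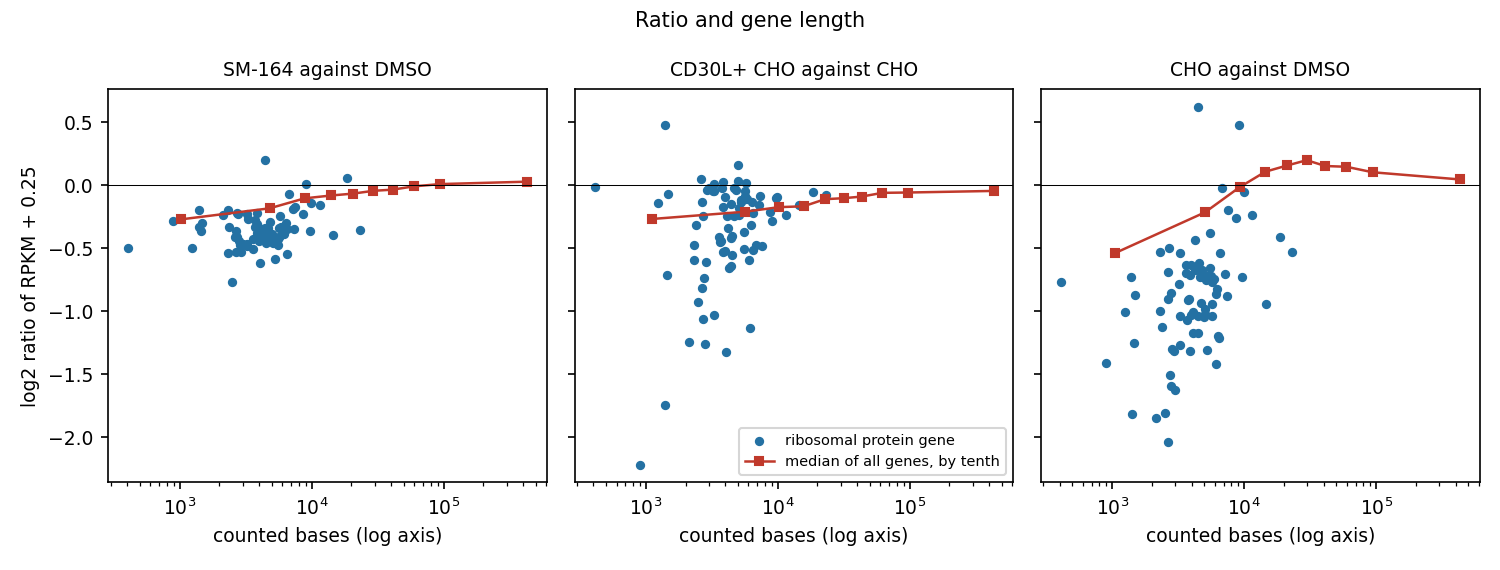
log2 ratio of RPKM + 0.25 against counted bases (log axis) for the ribosomal protein genes, with the median of all genes by decile of length as a red line, in the 3 comparisons. The members lie below the red line for SM-164 against DMSO and for CHO against DMSO (medians -0.18 and -0.58 with the length trend subtracted) and scatter around it for CD30L+ CHO against CHO (-0.010).

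The responses within the 2 experiments did not rank the members alike. Between the drug and the receptor comparison, which share no library, Spearman's rho was 0.02 over 78 members and 0.40 over 7210 genes tested in both, as a description across genes. RPS28 and RPS15, both past 2-fold on CD30L+ CHO cells, had log2 ratios of -0.28 and -0.23 with SM-164, whereas RPL4 and RPL7A, at -0.59 and -0.53 with SM-164, had -0.12 and -0.03 on CD30L+ CHO against CHO cells. RPS2 and RPL35 were past 1.5-fold in both. Many ribosomal protein genes have processed pseudogenes elsewhere in the genome, and reads they share are uncertain. Between 5.06% and 13.9% of the members' estimated counts were whole numbers (within 0.001), against 46.5% to 59.3% over all genes, and how shared reads were divided was not given in the sources used here.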

How the data were processed

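Bromouridine-labelled RNA from 4 Karpas 299 cultures was sequenced, 1 library per condition. Per the submitters' processing notes, reads were processed against hg19 with TopHat 1.4.1, Bowtie 0.12.8, bedtools 2.16.2 and CASAVA 1.8.2; which annotation defined the genes was not given in the sources used here. The authors deposited an estimated count of reads per feature over exons and introns, a signal per counted base, and an RPKM. The library totals behind the RPKM (26217590 to 45885630 reads) follow from it and the signal. Strand-specific synthesis applied to certain samples per the labels, without saying which.

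One entry per symbol was kept. Ratios are log2 of RPKM + 0.25 for genes of 300 or more counted bases whose RPKM averaged 0.5 or more over both libraries. With 1 library per condition no test was made; members past 1.5-fold or 2-fold are set beside the share of all genes past the same limit. Ratios of reads have exact conditional (Clopper-Pearson) 95% intervals on rounded counts, and shares have Wilson 95% intervals. Alternatives were other pseudocounts and minimums, TMM factors (edgeR 4.0.16 on R 4.3.3), centring, a length trend (running median over 301 genes ordered by counted bases) and subsets of members. Scripts ran on scipy 1.17.1, pandas 2.3.3, numpy 2.4.6 and matplotlib 3.10.9 under Python 3.11.15, and the ratios were tested on simulated data.

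Named genes were the 8 highest in DMSO, the 6 lowest and 4 highest ratios per comparison, all members past 2-fold, paralogs, members with roles outside the ribosome, MYC, and genes past 2-fold in the other lists; others were named after their values were seen. The members and lists were chosen with earlier results of these data known. Promoter sequences are from RefSeq (GRCh38.p14), matched by symbol. Some genes are counted in the totals but not reported here by name.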

Additional observations from a re-analysis of the deposited data

Results flagged for a closer look

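Reads on the strand opposite to the ribosomal protein genes lay outside the comparisons and were drawn out because they were above the control. They came to 45.4 RPM (reads scaled by library total) with SM-164 and 39.6 with DMSO, a ratio of 1.14 (95% interval 1.06 to 1.24, counting error only), while reads on the genes' own strand had a ratio of 0.765. On CD30L+ CHO against CHO cells the antisense ratio was 1.03 (0.979 to 1.09), with 59.2 and 57.3 RPM. For CHO against DMSO it was 1.44 (1.35 to 1.55). Antisense reads were 0.782% of member reads with SM-164, 0.525% with DMSO, 1.72% on CD30L+ CHO and 1.42% on CHO cells. Whether they are antisense transcripts, neighbouring genes or reads of the wrong strand was not tested.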

How the results depend on the processing

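No paired analysis was possible because each condition has 1 library. Of the values that summarise the set, 105 stayed within their error or within 1.5 times the count, and 36 moved. A reversal was looked for only in medians past 1.5-fold and in ratios of summed reads, and 0 were found. Counts, shares and smaller medians could not be labelled as reversed. Where no share of all genes is printed beside a count under an alternative, that count describes the members alone. The difference between 60S and 40S medians did not move under any alternative. With SM-164 against DMSO, the members past 1.5-fold (3) were 1 with a pseudocount of 1 RPKM, 1 after centring all genes at a median of 0, 1 under TMM scaling and 0 with the length trend subtracted, which put the median at -0.18. With that trend subtracted, 9 of the 7881 genes tested were lower by 1.5-fold. The ratio of summed reads was 0.789 under TMM and 0.754 scaled by sense features.

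On CD30L+ CHO against CHO cells the median was -0.12 centred, -0.034 under TMM and -0.010 with the length trend subtracted. The 17 members past 1.5-fold became 10 under TMM, 9 with the length trend subtracted and 10 outside chromosome 19. Of all 7661 genes tested, 149 were lower by 1.5-fold with the length trend subtracted. The 8 past 2-fold became 5 with a pseudocount of 1 RPKM, 5 under TMM, 4 with the length trend subtracted and 3 outside chromosome 19. The ratio of sums was 0.976 under TMM and 0.838 by sense features. For CHO against DMSO the median was -0.97 under TMM and -0.58 with the length trend subtracted, and the ratio of sums was 0.491 under TMM. The subtraction left 39 members past 1.5-fold, against 763 of 8081 genes, and 12 past 2-fold. The length trend subtracts what genes of like length share, and the outside-chromosome-19 set has fewer genes by construction; for the others the cause was not tested.

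The share of reads was 0.723% with SM-164, 0.958% with DMSO, 0.426% on CD30L+ CHO and 0.509% on CHO cells over sense features alone. It was 0.566%, 0.740%, 0.332% and 0.392% in the same order with at least 1000 counted bases, and 0.555%, 0.726%, 0.325% and 0.385% without RPS15A, the member of most reads. Of the values of single genes, 344 stayed and 94 moved. A change of sign was counted as a reversal only for genes past 1.5-fold, and none of those reversed. Ratios nearer to no change could switch sign, as those of RPL21 and RPL7 did under TMM scaling on CD30L+ CHO against CHO cells. Leaving out chromosome 19 and keeping only members whose length was mostly counted were chosen after seeing the data. Depth limits RPS28 and RPL36 most among the members past 2-fold on CD30L+ CHO cells, with 67.0 and 133 reads there.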
